A study of Saccharomyces cerevisiae with 2 samples.

Results

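The pyrimidine pathway of *Saccharomyces cerevisiae* was followed in 10 genes, URA1, URA2, URA3, URA4, URA5, URA6, URA7, URA10, FUR4 and PPR1. They were taken by gene name, as the genes of the pathway in which the laboratory strain of this study lacks URA3. All 10 have a row among the 6716 genes of both expression tables, and the 9 genes other than URA3 had at least 156 fragments in each library. The tables hold 2 RNA-Seq libraries, 1 of YHJ7, a haploid strain from Chinese rice wine whose genotype is given as wild type, and 1 of BY4741. The rice wine strain is named YHJ7 after the paper, while the sample labels write YHJ8 and title the sample DY1. BY4741 is a MATa laboratory strain derived from S288c, and its label lists deletions at HIS3, LEU2, LYS2 and URA3. Both strains were inoculated in YPD, a rich medium, at an OD600 of 0.05 and collected in early stationary phase, and each library pooled 2 biological replicates. How far replicates vary is therefore unknown here, and differences are given without p-values. A strain difference here is that between 2 libraries of strains that also differ at many other loci. The paper also states, without showing data, that YHJ7 grew substantially faster than laboratory strains in YPD. Whether the cultures were at the same stage when collected was not tested. The part of the ura3 deletion therefore cannot be told apart from the rest of the genetic background or from culture stage.

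Yeast makes UMP, the precursor of all pyrimidine nucleotides, from glutamine, bicarbonate and aspartate. Ura2 makes carbamoyl phosphate and joins it to aspartate, Ura4 closes the ring to dihydroorotate, and Ura1 oxidises it to orotate. Ura5 and Ura10 attach orotate to phosphoribosyl pyrophosphate (PRPP), and Ura3 decarboxylates the product to UMP. Ura6 phosphorylates UMP, and Ura7 and its isozyme Ura8 turn UTP into CTP. Cells without Ura3 depend on uracil or uridine taken up from the medium, which Fur4, the uracil permease, and Fui1, the uridine permease, carry across the plasma membrane. UTP inhibits Ura2 and lowers URA2 expression, and the zinc cluster activator Ppr1 raises URA1, URA3, URA4 and URA10 when pyrimidines run short and their intermediates dihydroorotate and orotate build up.

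For each gene the files give a count, which is an estimate, and its FPKM, which the paper defines as scaled to exon length and to mapped fragments. However, for URA5, URA10, URA7 and URA8 the FPKM per count was the same in both libraries. URA5 had 179.6 FPKM at a count of 889.9 in BY4741 and 266 FPKM at 1317.8 in YHJ7. The counts totalled 8.14e+06 in BY4741 and 1.02e+07 in YHJ7, so the FPKM as deposited do not put the libraries at equal count totals. The strain was read from the column headings, which go against the sample that each table was attached to. In the table of both strains, 344 of 357 genes that differed at least 4-fold went the same way as under the headings. The counts of each library were mostly multiples of 1 value, 0.797 in BY4741 and 1.25 in YHJ7, which was taken as the worth of 1 fragment. Values up to 500 were such multiples, within 0.02 of the step, for 75% of genes in BY4741 and 74.9% in YHJ7. On this scale the libraries held 10219029 and 8168396 fragments on genes. All errors below are 95% Poisson intervals or standard errors (SE) from these fragments, and cover counting error only. LEU2 and MET17 were, like URA3, at 0 in BY4741, although MET17 is not among the deletions on the label. LYS2 and HIS3, which are, had 1348 and 548 fragments there. LYS2 was level between the strains, at 26.1 FPKM in BY4741 and 25.3 in YHJ7, so the deletion on the label does not show in its signal. HIS3 had 91.6 and 187.8 FPKM, and whether only a part of it is missing was not tested. The 4 a-cell genes MFA1, MFA2, STE2 and BAR1 were all at least 2-fold higher in BY4741. The 4 alpha-cell genes were also all higher there, with MF(ALPHA)1 and STE3 past 2-fold, so both sets went the same way, with medians of -3.03 and -1.25. On the log2(FPKM + 1) scale used for every difference below, YHJ7 was above BY4741 by 2-fold or more for 836 of all genes and below it by as much for 661. When the count totals of the libraries were set equal, these numbers were 513 and 1070, so the higher genes were 55.8% of those past 2-fold as deposited and 32.4% after scaling. That scaling lowered the median difference of all genes from 0.00 to -0.30, and the values below are as deposited.

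URA3 (YEL021W) lies on the forward strand of chromosome V at 116167-116970 (sacCer3), in a reading frame without introns. In YHJ7 it had 154.6 FPKM from 768 fragments, with an interval of 143.8 to 165.9, and stood at percentile 78.3 of all genes. In BY4741 it had 0 fragments, where 3 fragments would have been 0.384 FPKM. The level in YHJ7 was thus at least 403-fold higher than this floor. URA3 is on the label of BY4741 as deleted. For genes that both strains carry, fewer expressing cells and less RNA per cell cannot be told apart, as libraries hold the RNA of whole cultures.

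The absence of signal in BY4741 was limited to URA3 among the annotated genes around it that have a row. GEA2, a guanine nucleotide exchange factor for Arf proteins that ends 366 bases before URA3, had 6.59 FPKM in BY4741 and 5.14 in YHJ7. TIM9, which encodes a chaperone of the mitochondrial intermembrane space and begins 240 bases after URA3, had 693.7 FPKM in BY4741 and 714.9 in YHJ7. Its log2 ratio of YHJ7 over BY4741 was 0.04 ± 0.09 (counting SE), but its locus in the files overlaps that of YEL020C-B. YEL023C, 5614 bases before URA3, had 10.02 FPKM in BY4741 and 3.48 in YHJ7. PXP1, 1646 bases after URA3, had 231.5 FPKM in BY4741 and 141.8 in YHJ7. RIP1, which encodes the Rieske protein of respiratory complex III and lies 8259 bases before URA3, had 1733 FPKM in BY4741 and 3413 in YHJ7. RIP1 and YEL023C differed in opposite directions, so the genes around URA3 showed no common shift. The RNase P RNA gene RPR1, between TIM9 and PXP1, was not analysed here.

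**Figure D1:**
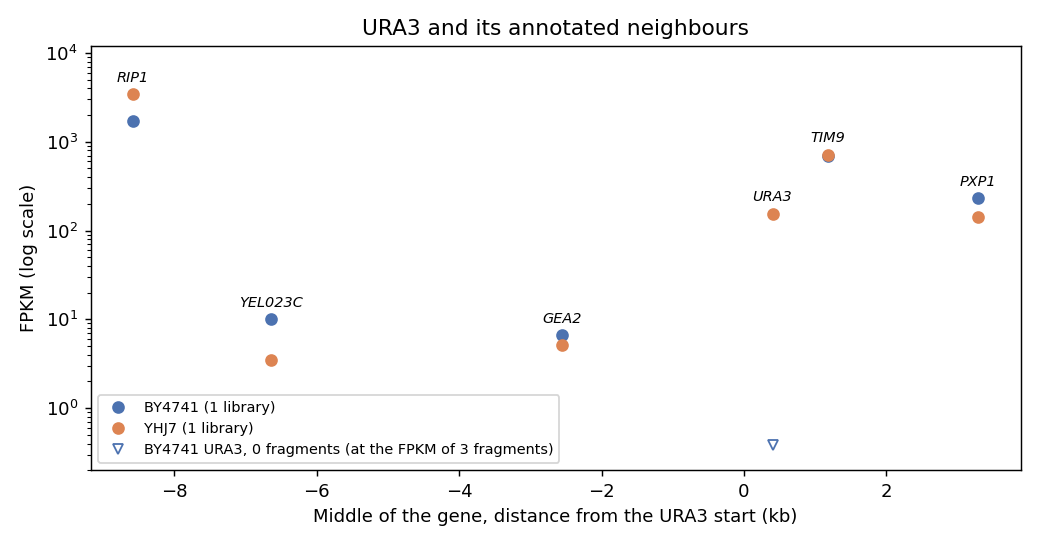
FPKM (log scale) of URA3 and of the annotated protein-coding genes around it, against the distance of the middle of each gene from the start of URA3 in kb, with 1 point per library. URA3 has 154.6 FPKM in YHJ7 and 0 fragments in BY4741, drawn as an open triangle at 0.384 FPKM, the level of 3 fragments, while the other genes have signal in both strains.

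Besides URA3, the pathway genes differed in both directions rather than together. YHJ7 exceeded BY4741 by 2-fold or more in 4 of the 10 (URA2, URA3, URA7 and FUR4), against 12.4% of all genes, and 2 were at least 2-fold lower (URA1 and URA10), against 9.84% of all genes. URA4, URA5, URA6 and PPR1 differed by less than 1.5-fold, so that 6 of 10 reached 1.5-fold, against 41.5% of all genes. In all, 6 of the 10 were higher and 4 lower in YHJ7, and their median difference was 0.46, against 0.00 over all genes. Without URA3, whose difference follows from the genotype, 3 of 9 were at least 2-fold higher. At 4-fold only URA3 and URA7 remained, both higher in YHJ7, against 2.74% of all genes, and none was 4-fold lower, against 3.75%. Summed over the 9 genes, the level was 1094 FPKM in BY4741 and 864.6 in YHJ7, and with URA3 the sum in YHJ7 was 1019.

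**Figure D2:**
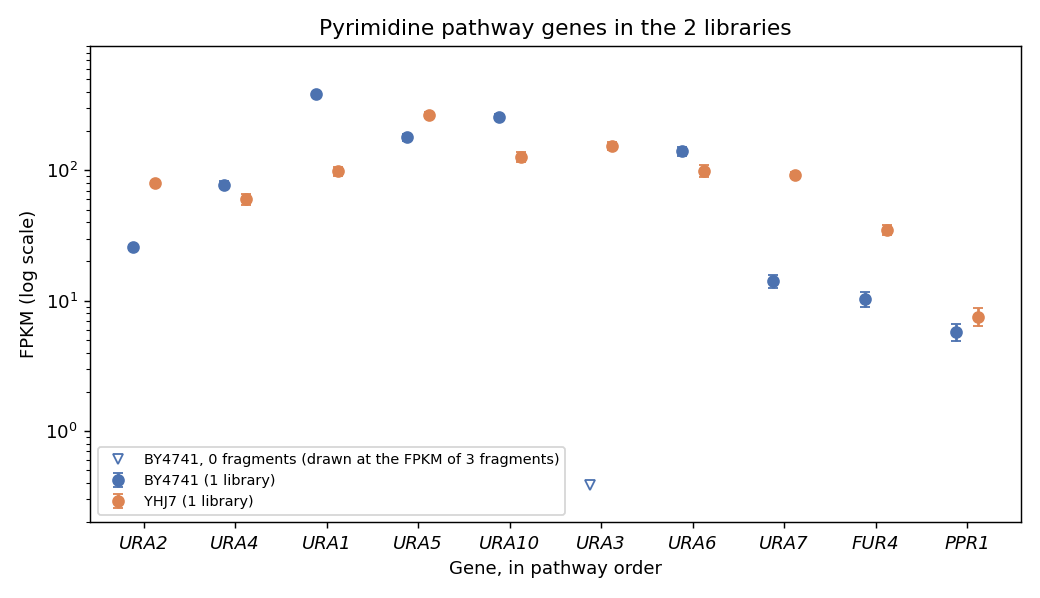
FPKM (log scale) of the 10 genes, enzymes in pathway order followed by FUR4 and PPR1, in the BY4741 and YHJ7 libraries, with 95% Poisson intervals of the fragments as bars. URA1 and URA10 sit higher in BY4741, URA2, URA7 and FUR4 sit higher in YHJ7, and URA3 in BY4741 (0 fragments) is drawn as an open triangle at 0.384 FPKM.

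The enzymes before UMP did not follow one pattern along the pathway. URA2 (YJL130C, chromosome X, 165723-172752 in the files, reverse strand) encodes the large enzyme of both opening steps, at which UTP acts. It had 25.7 FPKM in BY4741 from 2257 fragments and 80.4 FPKM in YHJ7 from 4487. That is a 3.13-fold higher level in YHJ7, with a log2 ratio of 1.64 ± 0.037 (counting SE). The coding region in RefSeq is 6645 bases long, whereas the locus in the files is 7030, and this length enters the FPKM of both libraries alike. The next gene in the pathway went slightly the other way. URA4 (YLR420W, chromosome XII, 963785-964879, forward strand), the dihydroorotase gene, had 77.8 FPKM in BY4741 from 902 fragments and 60.0 FPKM in YHJ7 from 442. It was 1.30-fold lower in YHJ7, with a log2 ratio of -0.38 ± 0.084.

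URA1 was the most abundant of the 10 genes in BY4741 and, of the 4 that were lower in YHJ7, the one that differed most. URA1 (YKL216W, chromosome XI, 25215-26159, forward strand) encodes dihydroorotate dehydrogenase, which in *S. cerevisiae* is a cytosolic enzyme that passes its electrons to fumarate. It had 382 FPKM in BY4741 from 3684 fragments and 98.2 FPKM in YHJ7 from 602, a 3.89-fold lower level in YHJ7 (log2 ratio -1.96 ± 0.063). Among all genes it stood at percentile 90.2 in BY4741 and 70.3 in YHJ7. Within a library the balance of the steps therefore differed between the strains. The ratio of URA1 to URA2 FPKM was 14.8 in BY4741 and 1.22 in YHJ7, and that of URA1 to URA4 was 4.91 and 1.64. Summed over the 5 enzyme genes from URA2 to URA10, that is without URA3, the level was 923.8 FPKM in BY4741 and 630.7 in YHJ7. Of the 6 de novo genes, 2 (URA2 and URA3) exceeded 2-fold upward in YHJ7 and 2 (URA1 and URA10) downward, against 12.4% and 9.84% of all genes. Their median difference was 0.10 with URA3 and -0.37 over the 5 genes without it.

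At the orotate phosphoribosyltransferase step the leading isozyme gene differed between the strains. URA5 encodes the major form of the enzyme and URA10 the minor form. URA5 (YML106W, chromosome XIII, 56773-57453, forward strand) had 179.6 FPKM in BY4741 from 1117 fragments and 266 FPKM in YHJ7 from 1052, 1.48-fold higher in YHJ7 (log2 ratio 0.57 ± 0.062). URA10 (YMR271C, chromosome XIII, 806865-807548, reverse strand) had 258.6 FPKM in BY4741 from 1618 fragments and 126.1 FPKM in YHJ7 from 502, 2.05-fold lower in YHJ7 (log2 ratio -1.04 ± 0.074). URA5 thus made up 41.0% of the FPKM of the pair in BY4741 and 67.8% in YHJ7. The exact 95% intervals of its share of the fragments were 39.0 to 42.7% and 65.3 to 70.0%, so the gene with the larger share was URA10 in BY4741 and URA5 in YHJ7. The sum of the pair differed less than either gene did, with 438.2 FPKM in BY4741 and 392.2 in YHJ7, or 1.12-fold. The coding sequences of the pair were 68.3% identical in a global alignment of the RefSeq sequences, and the longest stretch they shared exactly was 11 bases.

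PPR1 (YLR014C, chromosome XII, 172268-174982, reverse strand), the gene of the pathway activator, was the least abundant of the 10 genes in YHJ7 and, after URA3, in BY4741. It had 5.71 FPKM in BY4741 from 186 fragments and 7.53 FPKM in YHJ7 from 156, at percentiles 8.0 and 14.4. The difference was 1.32-fold, with a log2 ratio of 0.40 ± 0.16. Of the 4 genes that RefSeq notes as activated by Ppr1, all 3 that BY4741 still carries were lower in YHJ7, namely URA1, URA4 and URA10, although URA4 differed only 1.30-fold. The median of the 4 genes was -0.70, and -1.03 without URA3, and 2 of 4 were at least 2-fold lower, against 9.84% of all genes. Of the 6 genes outside this group, 5 were higher in YHJ7 and URA6 was lower, with a median of 1.09 and 3 at least 2-fold higher, against 12.4% of all genes. Over all 6716 genes, 3329 were higher and 3307 lower in YHJ7. URA4, URA5, URA6 and PPR1 differed by less than 1.5-fold, and URA6 was higher in YHJ7 in the table of both strains.

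The promoters of the 4 genes are shown because Ppr1 binds pairs of CGG triplets that face each other, that is CGG, any 6 bases, then CCG, a pattern that reads the same on both strands. Each sequence runs 5′ to 3′ from 250 bases before the start codon to 50 bases into the gene, read from the RefSeq genome (sacCer3, R64) of the reference strain, and capitals mark each match with its 6 bases. They lie at chrXI:24965-25264 (URA1, forward strand), chrV:115917-116216 (URA3, forward strand), chrXII:963535-963834 (URA4, forward strand) and chrXIII:807499-807798 (URA10, reverse strand).
URA1: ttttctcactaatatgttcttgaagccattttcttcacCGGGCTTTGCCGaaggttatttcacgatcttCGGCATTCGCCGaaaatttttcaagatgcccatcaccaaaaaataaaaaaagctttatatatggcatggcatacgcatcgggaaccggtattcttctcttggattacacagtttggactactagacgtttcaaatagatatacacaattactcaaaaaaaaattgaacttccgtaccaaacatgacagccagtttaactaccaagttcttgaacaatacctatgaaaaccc
URA3: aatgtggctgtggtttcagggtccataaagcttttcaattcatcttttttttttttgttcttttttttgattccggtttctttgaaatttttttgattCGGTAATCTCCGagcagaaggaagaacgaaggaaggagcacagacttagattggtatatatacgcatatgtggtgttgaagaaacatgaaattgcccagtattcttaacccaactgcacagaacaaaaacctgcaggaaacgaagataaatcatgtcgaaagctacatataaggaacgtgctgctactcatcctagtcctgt
URA4: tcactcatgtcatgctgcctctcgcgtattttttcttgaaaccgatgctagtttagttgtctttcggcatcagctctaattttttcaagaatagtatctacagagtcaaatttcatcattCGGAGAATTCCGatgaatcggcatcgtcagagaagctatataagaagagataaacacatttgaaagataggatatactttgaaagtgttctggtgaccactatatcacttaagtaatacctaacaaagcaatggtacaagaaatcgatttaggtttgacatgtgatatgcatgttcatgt
URA10: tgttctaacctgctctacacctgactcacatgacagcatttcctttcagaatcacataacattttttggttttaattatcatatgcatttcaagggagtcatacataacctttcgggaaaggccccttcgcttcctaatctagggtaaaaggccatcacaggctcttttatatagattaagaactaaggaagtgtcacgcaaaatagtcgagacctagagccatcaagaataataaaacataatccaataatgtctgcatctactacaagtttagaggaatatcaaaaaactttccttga

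URA1 held 2 matches, which began 212 and 181 bases before the start codon. URA3 held 1 match, 152 bases before the start codon, and URA4 held 1, 130 bases before it. URA10, although lower in YHJ7 like URA1, held none in this window, nor did any of the 6 genes outside the group. The pattern was found in 75 of 6001 promoters of the same length, or 1.25%. Only 1 of the 6001 had it with TT before and AA after, and that was the promoter of URA1. Of the 75 genes, 67 had a row in the files, among them URA1, URA3 and URA4. Their median difference was -0.15, and 9 were at least 2-fold lower and 6 at least 2-fold higher in YHJ7, against 9.84% and 12.4% of all genes. A match is a description of the reference sequence, and the promoters of YHJ7 were not analysed here.

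**Figure D3:**
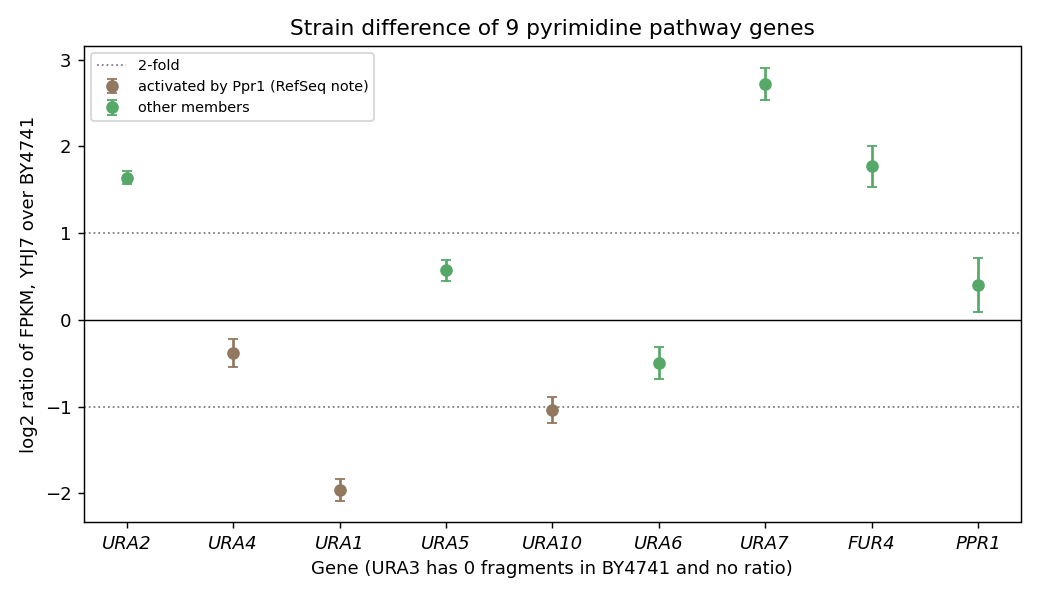
Log2 ratio of FPKM, YHJ7 over BY4741, of the 9 genes with fragments in both libraries, with 95% counting intervals as bars and dotted lines at 2-fold. The genes activated by Ppr1 (URA1, URA4, URA10) sit below 0, and among the others only URA6 does, while URA7 (2.72), FUR4 (1.77) and URA2 (1.64) sit above the upper line.

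After UMP, the CTP synthase gene URA7 differed most of the 9 genes with signal in both strains. URA6 (YKL024C, chromosome XI, 392526-393140, reverse strand), which encodes the kinase that turns UMP into UDP, had 139.7 FPKM in BY4741 from 749 fragments and 98.8 FPKM in YHJ7 from 337. Its direction depended on the table, as the difference was -0.50 here and 0.18 in the authors' table of both strains, where URA6 shares a locus with YKL023C-A. URA7 (YBL039C, chromosome II, 143989-145728, reverse strand) had 14.1 FPKM in BY4741 from 281 fragments and 92.5 FPKM in YHJ7 from 1174. It was 6.57-fold higher in YHJ7, with a log2 ratio of 2.72 ± 0.096, and stood at percentile 22.1 of all genes in BY4741 and 69.1 in YHJ7. The files give YBL039C-A the same locus as URA7, and list it at 0 FPKM in both libraries.

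The isozyme gene of URA7 went the other way. URA8, which encodes the minor CTP synthase, had 152 FPKM in BY4741 from 3026 fragments and 93.2 FPKM in YHJ7 from 1180, 1.63-fold lower in YHJ7 (log2 ratio -0.71 ± 0.05). URA7 made up 8.48% of the FPKM of the pair in BY4741 and 49.8% in YHJ7, and the exact 95% intervals of its share of the fragments were 7.57 to 9.50% and 47.8 to 51.9%. The sum of the pair was 166 FPKM in BY4741 and 185.7 in YHJ7, again 1.12-fold. At both steps with an isozyme pair, the gene named as the major form in the annotation was thus the smaller one in BY4741, and its share was larger in YHJ7. The coding sequences of URA7 and URA8 were 71.7% identical and shared at most 17 bases in a row. The value of URA8 is from its own locus, and in the authors' table of both strains it is pooled with 4 other genes, at 0.44.

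**Figure D4:**
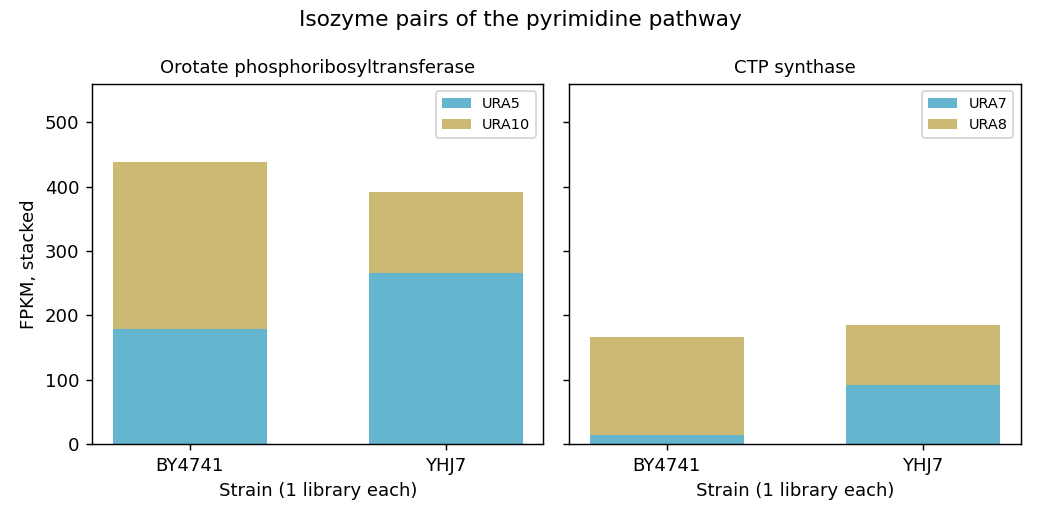
Stacked FPKM of the isozyme genes URA5 and URA10 (left) and URA7 and URA8 (right), with 1 bar per strain and 1 library per bar. The bars of a pair are of similar height in the 2 strains (438.2 and 392.2 FPKM, 166 and 185.7 FPKM), while the lower segment, the major isozyme gene, is larger in YHJ7.

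Genes for the uptake of pyrimidines were higher in YHJ7, the strain with URA3. FUR4 (YBR021W, chromosome II, 281443-283344, forward strand), the uracil permease gene, had 10.3 FPKM in BY4741 from 227 fragments and 35.0 FPKM in YHJ7 from 491. It was 3.40-fold higher in YHJ7, with a log2 ratio of 1.77 ± 0.12, and stood at percentiles 15.8 and 45.3. FUI1, the uridine permease gene, had 34.1 FPKM in BY4741 and 159.6 in YHJ7, 4.69-fold higher. FCY2, the permease gene for cytosine and purines, had 291 FPKM in BY4741 and 1238 in YHJ7, 4.25-fold higher. Its paralogs FCY22, with 26.1 and 60.3 FPKM, and FCY21, with 12.9 and 23.6, were also higher in YHJ7. FCY2 and FCY22 share up to 116 bases in a row, so reads could be split between them and their separate values are uncertain.

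The genes that bring salvaged bases back to nucleotides were also higher in YHJ7 as deposited, but none reached 2-fold. FUR1, whose product makes UMP from uracil and PRPP, had 37.6 FPKM in BY4741 from 219 fragments and 73.6 FPKM in YHJ7 from 273, which is 1.96-fold higher. URK1, the uridine kinase gene, had 12.2 and 17.3 FPKM, and URH1, the uridine nucleosidase gene, 12.1 and 19.8. The deaminase genes FCY1 (340.6 and 369.2 FPKM) and CDD1 (52.9 and 60.2 FPKM) were 1.08- and 1.14-fold higher, and both turned negative, at -0.21 and -0.14, with equal count totals. Of the 9 salvage and uptake genes beside FUR4, all 9 had a difference above 0 as deposited and 7 after that scaling, the median was 0.82, and 3 were at least 2-fold higher (FCY2, FCY22 and FUI1), against 12.4% of all genes. With equal count totals FCY22 was at 0.86 and 2 remained.

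Among the genes of nucleotides after UMP, 1 of 6 was at least 2-fold higher and none lower by as much, against 12.4% and 9.84% of all genes. The other 5 had a difference below 0, the median was -0.27, and URA8 reached -1.03 with equal count totals. The higher gene was DCD1, the dCMP deaminase gene, with 3.35 FPKM in BY4741 from 32 fragments and 10.4 FPKM in YHJ7 from 63. YNK1, which encodes nucleoside diphosphate kinase, had 1704 and 1678 FPKM, and CDC21, the thymidylate synthase gene, 23.9 and 22.9. CDC8 (30.5 and 20.2 FPKM) and DUT1 (83.3 and 59.5 FPKM), which encode thymidylate kinase and dUTPase, were lower in YHJ7 by less than 2-fold on the log2(FPKM + 1) scale. Of the nucleotidase genes, PHM8 had 120.5 FPKM in BY4741 and 57.1 in YHJ7, 2.11-fold lower, and SDT1 had 32.0 and 27.2.

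Carbamoyl phosphate is also made for arginine synthesis, by an enzyme apart from Ura2. CPA1, which encodes its small subunit and whose translation in yeast is held back by an arginine-dependent peptide in its leader, had 321.4 FPKM in BY4741 from 4312 fragments and 1635 FPKM in YHJ7 from 13948. That is 5.09-fold higher in YHJ7, with a log2 ratio of 2.35 ± 0.025. PRPP, which both the de novo and the salvage route use, is made by the PRS gene products. All 5 PRS genes had a difference above 0, from 0.09 for PRS2 to 1.12 for PRS5, and PRS3 and PRS5 were at least 2-fold higher, but with equal count totals PRS3 was at 0.73, PRS5 at 0.79 and PRS2 at -0.24, and none reached 2-fold. Over the 23 other pathway genes, 7 were at least 2-fold higher (12.4% of all genes) and 1 was at least 2-fold lower (9.84% of all genes), with a median of 0.66, against 0.00 over all genes. With equal count totals 4 were at least 2-fold higher (DCD1, FCY2, FUI1 and CPA1) and 2 at least 2-fold lower (PHM8 and URA8).

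**Figure D5:**
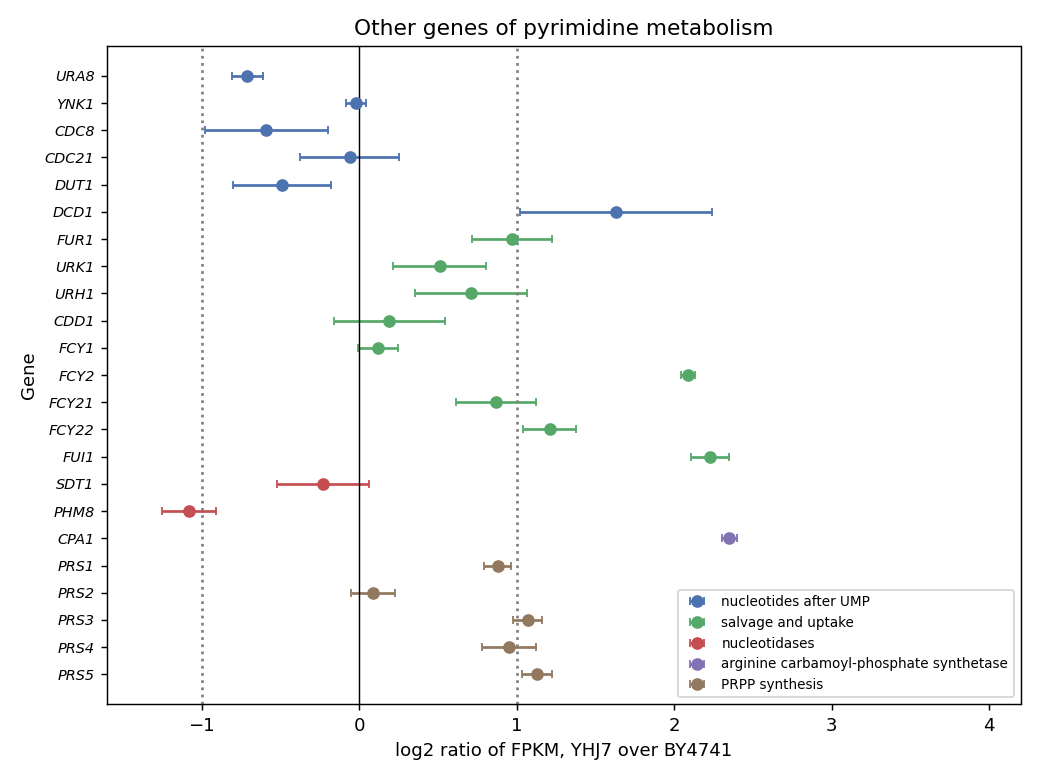
Log2 ratio of FPKM, YHJ7 over BY4741, of 23 other genes of pyrimidine metabolism, coloured by role, with 95% counting intervals as bars and dotted lines at 2-fold. CPA1 (2.35), FUI1 (2.23) and FCY2 (2.09) lie farthest to the right, and PHM8 (-1.08) farthest to the left.

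The order of the 10 levels differed between the strains. In BY4741 it ran from URA1 through URA10, URA5, URA6, URA4, URA2, URA7 and FUR4 to PPR1 and URA3, and the counting intervals of all neighbours in this order were apart. In YHJ7 it ran from URA5 through URA3, URA10, URA6, URA1, URA7, URA2 and URA4 to FUR4 and PPR1. There URA6, at 98.8 FPKM, URA1, at 98.2, and URA7, at 92.5, had intervals that overlapped those of their neighbours in this trio. By the distance between pairs of log2(FPKM + 1) values over the 2 libraries, the gene nearest to URA3 was TAR1, with 0 FPKM in BY4741 and 164.1 in YHJ7, followed by YFR012W-A, with 0 and 71.7, and YBR141W-A, with 0 and 70.3. The distances were 0.086, 1.10 and 1.13. None of these genes is on the label of BY4741 as deleted. Among all genes, 113 had a count of 0 in BY4741 and 210 in YHJ7, so a 0 alone does not mark a deleted gene. Nearest to URA7 were YPR196W, with 10.9 FPKM in BY4741 and 89.9 in YHJ7, SAM1, with 14.5 and 71.5, and HAS1, with 15.9 and 73.2, at distances of 0.35, 0.369 and 0.374.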

How the data were processed

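Polyadenylated RNA was sequenced from 1 library per strain. According to the paper's methods and the submitters' processing notes, the authors mapped the reads to sacCer3 with TopHat 2.0.4 and quantified genes with Cufflinks 2.0.2. The deposited files hold, for each gene, an estimated count (not a whole number) and an FPKM value. Reads of YHJ7 were mapped to the reference of another strain, and how sequence divergence or copy number moved its values was not tested. Rows that name no gene held 0.806% of the BY4741 counts and 0.309% of the YHJ7 counts and were left out.

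Differences are log2(FPKM + 1) of YHJ7 minus BY4741, with no filter on low values, and a gene was called at 2-fold. Ratios with counting SE are on FPKM without the pseudocount. Fragments were recovered from the steps of the counts. The step with the highest share of whole multiples was the same in BY4741 and 0.313 in YHJ7, which would give more fragments there. The search was tried on simulated counts with random fractions added to some genes. These held no finer step, so the choice between 1.25 and 0.313 in YHJ7 was not tested. With 1 library per strain no count model or test was run. A count of 3 fragments served as the floor. Gene names, roles, coordinates and sequences are from RefSeq (R64), to which 5980 of the 6716 genes matched by name. The authors' table of both strains also holds their fold changes, p-values and q-values, which were not used, while its FPKM values served as an alternative. Analyses used Python 3.11.15, NumPy 2.4.6, pandas 2.3.3, SciPy 1.17.1, Biopython 1.88 and matplotlib 3.10.9.

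Named genes were the 10 pathway genes, the lists of related genes given by role (1 listed gene is not reported here), the 3 annotated genes on either side of URA3, and the 3 genes nearest in pattern to URA3 and to the other member with the largest difference. Members and lists were chosen with earlier results of these data known. Alternatives were other pseudocounts, scalings, folds, filters on mean FPKM, and the table of both strains.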

Additional observations from a re-analysis of the deposited data

How the results depend on the processing

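No paired analysis was possible because a strain is represented by 1 library only, and for the same reason none could be left out. Each of the 10 genes was recomputed under 5 alternatives (pseudocounts of 0.1 and 10 FPKM, libraries set to equal count totals or to a median log2 ratio of 0, and the table of both strains). Of these 50 values, 34 stayed within the counting error and 16 moved, and 1 changed sign, that of URA6. The differences ranged from -2.28 to -1.86 for URA1, 1.29 to 1.64 for URA2, 4.04 to 10.59 for URA3, -0.70 to -0.33 for URA4, 0.24 to 0.57 for URA5, -0.82 to 0.18 for URA6, 2.09 to 2.71 for URA7, -1.36 to -0.98 for URA10, 1.15 to 1.76 for FUR4 and 0.06 to 0.40 for PPR1. With a pseudocount of 10 FPKM, 1 of the 10 genes, not 2, was at least 2-fold lower, 308 of all genes were, and the median of the other pathway genes was 0.43. Equal count totals scaled the FPKM of all genes in a library by the same factor, but with the pseudocount the differences did not all move alike. URA1 went from -1.95 to -2.28 and URA3 from 7.28 to 7.13. At 2-fold, 513 of all genes were then higher and 1070 lower. The medians were 0.15 for the 10 genes, -0.23 for the de novo genes and -1.03 for the genes activated by Ppr1. They were 0.36 for the other pathway genes and 0.57 for purine synthesis. Relative to the shifted median of all genes, URA1 was then at -1.97 and URA7 at 2.62. A call at 1.5-fold took in 1505 genes above and 1285 below BY4741, and a call at 4-fold 184 above, 2 of the 10 genes among them, and 252 below, 0 of the 10 among them. Leaving out genes whose FPKM averaged under 10 left 387 genes at least 2-fold lower. Chosen after seeing the data, a window of 500 bases before the start codon held the CGG pattern in 174 of 6000 promoters, the same 3 pathway genes among them, and isozyme shares from estimated counts were 40.8% and 67.7% for URA5 and 8.50% and 49.9% for URA7 in BY4741 and YHJ7. Of the 10 genes, depth limits PPR1 most, whose log2 ratio of 0.40 has a counting SE of 0.16, and of the other pathway genes DCD1, with an SE of 0.31 from 32 and 63 fragments.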

Other observations

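The genes of de novo purine synthesis, the pathway that supplies the other nucleotides and shares PRPP and glutamine with pyrimidine synthesis, were described for comparison. Of 11 genes, 4 were at least 2-fold higher in YHJ7 and none was lower, against 12.4% and 9.84% of all genes, and the median difference was 0.89. With equal count totals 1 of the 11, ADE6 at 1.25, was at least 2-fold higher, with the median log2 ratio set to 0 there were 3, and in the table of both strains 2 of 10. ADE6, whose product adds the amide nitrogen of glutamine early in the pathway, had 33.6 FPKM in BY4741 and 102 in YHJ7, 3.03-fold higher. ADE12, the adenylosuccinate synthase gene, was 2.32-fold higher, ADE1 2.23-fold and ADE5,7 2.03-fold. ADE16 was level, at 273.8 and 274.6 FPKM, and turned to between -0.32 and -0.04 under both other scalings and in the table of both strains, while its isozyme gene ADE17 had 140.2 FPKM in BY4741 and 261 in YHJ7. The 5 genes fixed as references, ACT1, ALG9, TAF10, TFC1 and UBC6, had differences from -0.74 for TFC1 to 0.72 for ALG9, with a median of 0.10, so URA4, URA5, URA6 and PPR1 lay within the range of these genes.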
